A study of Arabidopsis thaliana with 3 samples.

Results

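SWEET proteins are sugar transporters of plant membranes that let sugars move down their own gradient, out of or into a cell or its vacuole. The Arabidopsis genes described here were the 8 whose probe sets are annotated as SWEET1, SWEET2, SWEET4, SWEET11, SWEET13, SWEET16, SWEET17 or SAG29, the last also called SWEET15. Each had 1 probe set, so 8 of 13355 genes named by a probe set, and 8 of the 22746 Arabidopsis probe sets, were followed. They were chosen by name but with their signals on the same 3 arrays already known, so their ratios are given as a description and carry no test.

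RNA came from whole 7-day-old seedlings whose seeds, of every genotype, had spent 2 days in the cold before germinating on MS agar at 22 °C in constant light, with 1 Affymetrix array for each of 3 genotypes. In line 35S:WRKY6-9, called the overexpressor below, the transcription factor WRKY6 was driven by the 35S promoter, a viral promoter active in most plant tissues. The line wrky6-1, called the knockout below, is a knockout allele of the same gene, and the wild type was of the Columbia ecotype, a label given for that sample alone. The number of seedlings behind each RNA sample is not given in the sources used here. Because no genotype was replicated, each fold below compares 2 arrays, without a replicate check or p-value.

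The family is divided into clades by sequence. Members of clades I and II mostly carry hexoses, members of clade III mostly carry sucrose, and members of clade IV sit in the vacuole membrane. In leaves, clade III proteins release sucrose beside the phloem so that it can be loaded for export, and in the wider plant SWEET genes are known from nectar secretion, seed filling, pollen nutrition and infection by pathogens.

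The WRKY6 probe set itself had a signal of 9245 in the overexpressor and 12.1 in the knockout, against 322 in wild type, the order the labels give. The arrays had been scaled to the same mean before deposit, and their median signals lay between 169 and 182. Signals under 45.5, the 30th percentile over the arrays, were raised to that floor before a log2 ratio was taken, and a probe set was called measured in a comparison when the higher of the 2 arrays reached the 50th percentile, a signal of 174.6. Of the 17 SWEET genes, 16 had a probe set naming them alone in the annotation used here. The 8 members were all those that reached 174.6 on at least 1 array, and 0 of the other 8 did. None of the 8 members lay under the floor on any array, the lowest of their 24 signals being 63.1.

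SAG29 (AT5G13170), a sucrose transporter whose transcript is known to accumulate in senescing leaves and under osmotic stress, differed most among the genotypes. Its signal was 264 in the overexpressor and 883 in the knockout, against 64.4 in wild type. The knockout array was the highest, the overexpressor stood between, and the wild type was the lowest. SAG29 was 13.7-fold higher in the knockout than in wild type (log2 ratio 3.78), and 2 of 12222 measured probe sets had a larger ratio. The overexpressor exceeded wild type by a log2 ratio of 2.03 in SAG29, with 83 of 12139 measured probe sets above it. Set against each other, the lines differed 3.35-fold, with the overexpressor the lower one (log2 ratio -1.74). As a position among the Arabidopsis probe sets of its own array, SAG29 sat at the 59.1 percentile in the overexpressor and the 83.3 percentile in the knockout, against the 33.9 percentile in wild type. Both comparisons with wild type use the same wild-type array, whose low SAG29 signal enters both ratios. That signal lay near the floor. With the floor at the 40th percentile, the log2 ratio of SAG29 to wild type was 1.45 in the overexpressor and 3.20 in the knockout. In whole seedlings, more cells that express a gene and more RNA per cell cannot be told apart, and this applies to every gene below.

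**Figure D1:**
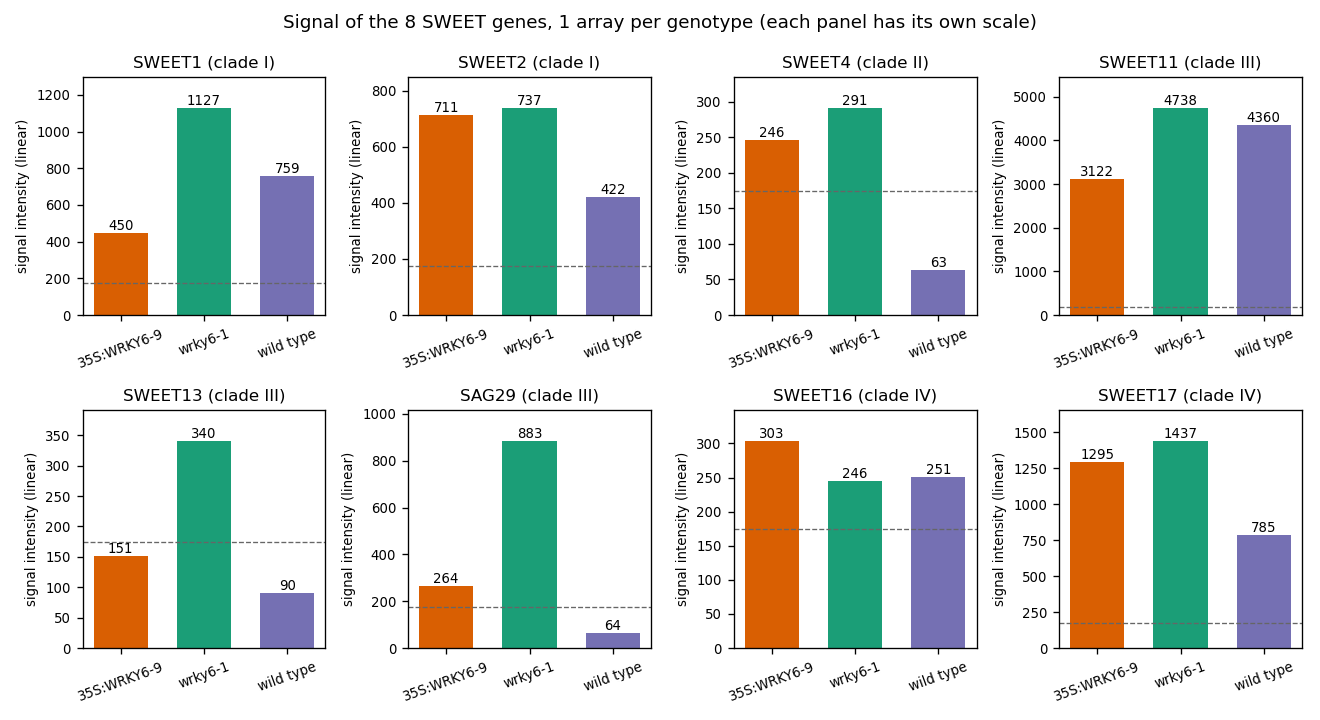
Signal intensity on a linear scale for each of the 8 SWEET genes, 1 bar per array, with 35S:WRKY6-9 on the left, wrky6-1 in the middle and wild type on the right. The dashed line is the signal of 174.6 used to call a probe set measured, and each panel has its own scale because signals of different probe sets are not comparable. SAG29 reached 883 in wrky6-1 against 64.4 in wild type, while SWEET16 lay between 246 and 303 on all arrays.

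The other clade III genes differed less. SWEET13 (AT5G50800), a sucrose transporter that with SWEET14 is also known to carry gibberellins in anthers, had a signal of 151 in the overexpressor and 340 in the knockout, against 90.3 in wild type. Its order over the genotypes was that of SAG29. It was 3.77-fold higher in the knockout than in wild type (log2 ratio 1.91) and 2.26-fold lower in the overexpressor than in the knockout (log2 ratio -1.17). Neither signal of the overexpressor comparison with wild type reached 174.6, and the log2 ratio there was 0.74. SWEET11 (AT3G48740), which with SWEET12 exports sucrose from phloem parenchyma cells during loading, had a signal of 3122 in the overexpressor and 4738 in the knockout, against 4360 in wild type. No genotype differed by 2-fold from another in SWEET11: it was 1.40-fold lower in the overexpressor than in wild type (log2 ratio -0.48), 1.09-fold higher in the knockout than in wild type (log2 ratio 0.12), and 1.52-fold lower in the overexpressor than in the knockout. The small difference between the knockout and wild type changed sign under lowess scaling, where it was -0.02. SWEET12 was not analysed here.

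SWEET4 (AT3G28007), the clade II member, is a plasma membrane hexose transporter known from vascular tissue. It had a signal of 246 in the overexpressor and 291 in the knockout, against 63.1 in wild type. Both lines stood well above wild type and close to each other, unlike SAG29, in which the lines differed 3.35-fold. SWEET4 was 3.89-fold higher in the overexpressor (log2 ratio 1.96) and 4.61-fold higher in the knockout (log2 ratio 2.20) than in wild type, while the log2 ratio between the overexpressor and the knockout was -0.24. The wild-type signal lay near the floor, and with the floor at the 40th percentile the log2 ratio to wild type was 1.35 in the overexpressor and 1.59 in the knockout. Among measured probe sets, 91 had a larger ratio than SWEET4 in the overexpressor and 63 in the knockout.

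The clade I genes lay on different sides of wild type in the overexpressor. SWEET1 (AT1G21460), a plasma membrane glucose transporter, had a signal of 450 in the overexpressor and 1127 in the knockout, against 759 in wild type. Wild type lay between the lines, SWEET1 being 1.69-fold lower in the overexpressor (log2 ratio -0.76) and 1.49-fold higher in the knockout (log2 ratio 0.57) than in wild type. Neither of these differences reached 2-fold, but the lines differed 2.51-fold, with the overexpressor lower (log2 ratio -1.33). SWEET2 (AT3G14770), a vacuolar glucose transporter known to limit sugar loss from roots, had a signal of 711 in the overexpressor and 737 in the knockout, against 422 in wild type. The lines were nearly alike in SWEET2 and both lay above wild type, with log2 ratios of 0.75 in the overexpressor and 0.80 in the knockout.

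The clade IV genes encode transporters of the vacuole membrane. SWEET17 (AT4G15920), which moves fructose across it, had a signal of 1295 in the overexpressor and 1437 in the knockout, against 785 in wild type. As for SWEET2, both lines were above wild type by less than 2-fold, 1.65-fold in the overexpressor and 1.83-fold in the knockout. SWEET16 (AT3G16690), which carries glucose, fructose and sucrose, had a signal of 303 in the overexpressor and 246 in the knockout, against 251 in wild type. Its highest and lowest arrays differed 1.24-fold, the narrowest span of the 8 genes. The log2 ratio of SWEET16 in the knockout over wild type was -0.03, and its sign turned under 3 of the 6 other floors and scalings.

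**Figure D2:**
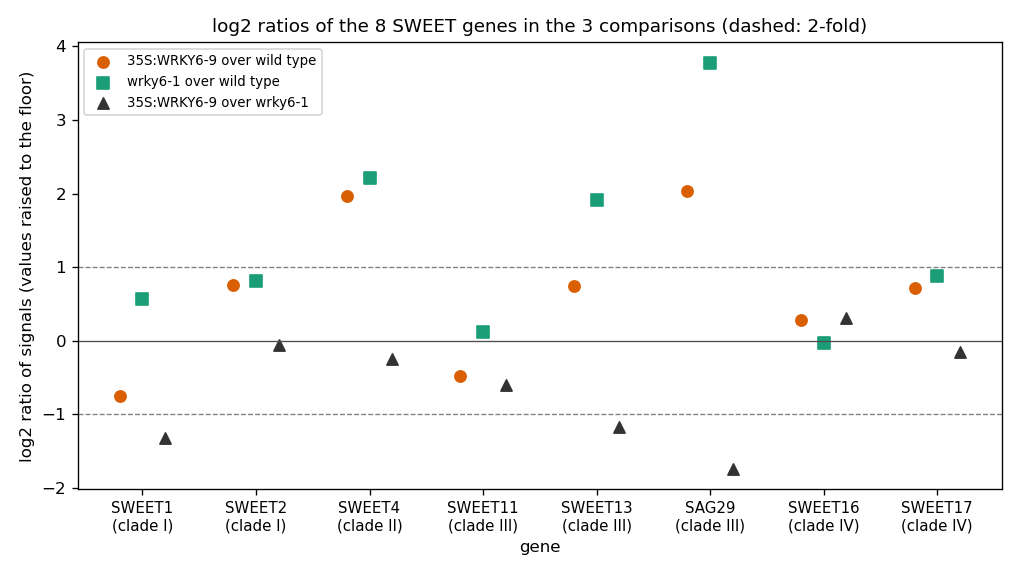
log2 ratios of signals for the 8 SWEET genes, with 1 point per comparison: circles for 35S:WRKY6-9 over wild type, squares for wrky6-1 over wild type and triangles for 35S:WRKY6-9 over wrky6-1. Dashed lines mark 2-fold. SAG29 had the widest spread, between 3.78 and -1.74, and SWEET4 stood above 2-fold in both lines with a ratio near 0 between them.

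Read by genotype, 7 of the 8 genes had their highest signal on the knockout array, SWEET16 being the exception, while 35.6% of the 12505 probe sets that reached 174.6 on any array were highest there. That count includes near ties, since the lines differed by no more than 0.24 on the log2 scale in SWEET2, SWEET4 and SWEET17 and SWEET11 was highest in wild type under lowess scaling. The lowest signal was on the wild-type array for 5 genes, on the overexpressor array for SWEET1 and SWEET11, and on the knockout array for SWEET16. The share of all probe sets lowest on each array was not counted. Of the genes lowest in wild type, SAG29, SWEET4 and SWEET13 were under 174.6 there and reached it only through a line in which they were higher. The members are also the family genes that reached 174.6 on some array, SWEET13 doing so only in the knockout. The 7 of 8 therefore cannot be read as particular to the family. The genes share their arrays and are no replicates of a genotype. The highest array was at least 2-fold above the lowest for SAG29, SWEET4, SWEET13 and SWEET1, that is for 4 of the 8. The share of all probe sets with such a span was not counted, so the 4 of 8 cannot be set against a background.

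In the overexpressor against wild type, 2 of the 7 measured members were at least 2-fold higher, SAG29 and SWEET4, and 0 were at least 2-fold lower. Over all measured probe sets the shares were 3.79% for higher and 5.61% for lower signals. Both calls ended when measurement required the 70th percentile, or a mean of the 2 arrays at the 50th, the count then being 0. The median log2 ratio was 0.72 over the 7 members and -0.02 over all measured probe sets. In the knockout against wild type, SAG29, SWEET4 and SWEET13 were at least 2-fold higher, 3 of 8 measured members, against 5.16% of all measured probe sets, and 0 were at least 2-fold lower, against 7.77%. At the 70th percentile only SAG29 was left of these 3. The median log2 ratio was 0.84 over the 8 members and -0.01 over all measured probe sets. In the overexpressor against the knockout, SAG29, SWEET1 and SWEET13 were at least 2-fold lower, 3 of 8, against 4.65% of all measured probe sets, and 0 were at least 2-fold higher, against 4.52%. These shares cannot be read as particular to the family, because the members were in effect selected on their signal: they are the family genes that pass the filter. SAG29 and SWEET4, and SWEET13 in the knockout comparison, were under 174.6 in wild type and so counted as measured only through the line in which they were higher. Between the lines, SWEET13 was likewise measured only through the knockout, its signal in the overexpressor being 151.

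**Figure D3:**
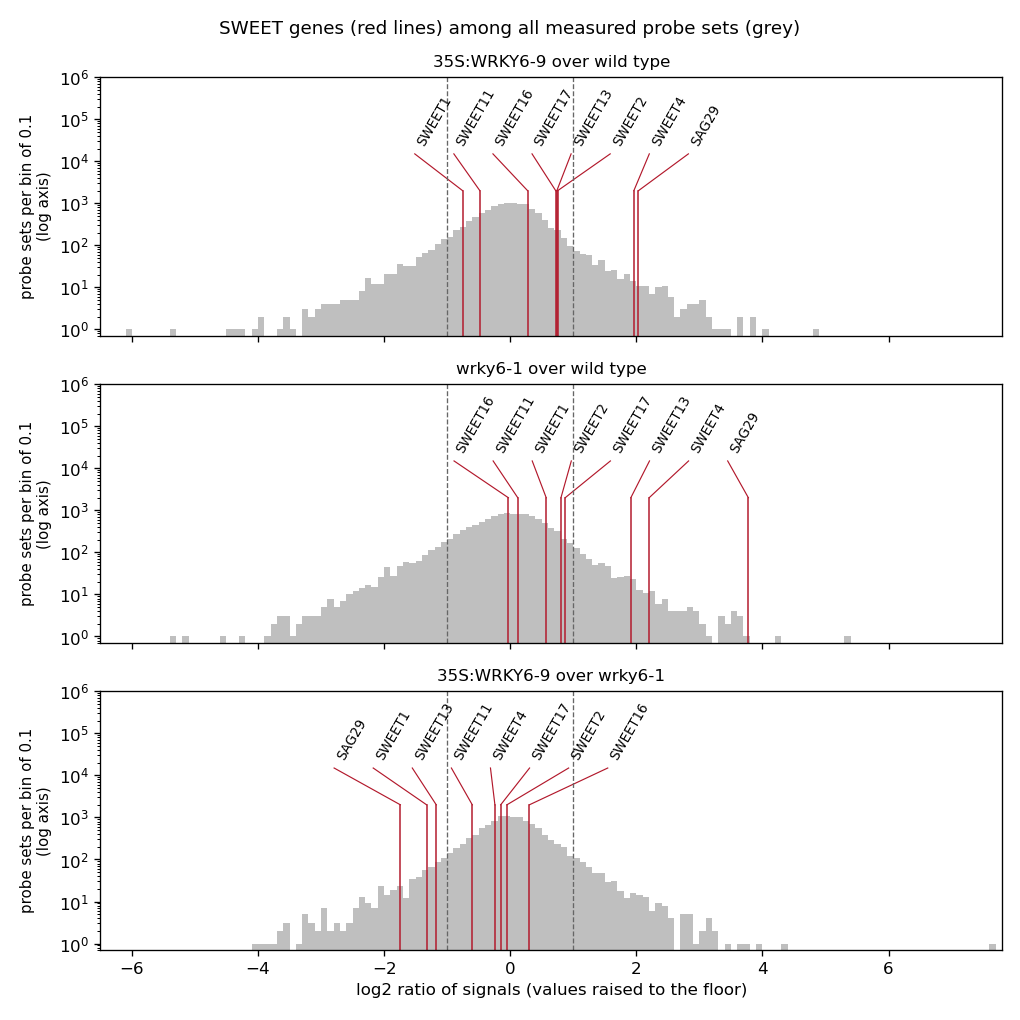
Distribution of log2 ratios over all measured probe sets in each comparison (grey, number of probe sets per bin of 0.1 on a log axis), with each of the 8 SWEET genes as a red line. The dashed lines mark 2-fold. SAG29 lay near the upper end in wrky6-1 over wild type, where 2 probe sets had a larger ratio, while SWEET16 and SWEET11 lay in the middle of that distribution.

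The 5 members that reached 174.6 in wild type were SWEET1, SWEET2, SWEET11, SWEET16 and SWEET17. This split leaves out SAG29, SWEET4 and SWEET13, which were low in wild type, so it favours lower ratios. Of the 5, 0 differed by 2-fold from wild type in either line. Over all measured probe sets, which include those low in wild type, 9.40% did so in the overexpressor and 12.9% in the knockout. A count of 0 among 5 genes is near that background. The log2 ratios of the 5 ran between -0.76 and 0.75 in the overexpressor, with 3 above 0, and between -0.03 and 0.87 in the knockout, with 4 above 0. SWEET11, above 0 in the knockout at 0.12, changed sign under lowess scaling. The median of the 5 was 0.28 in the overexpressor and 0.57 in the knockout. For the 11566 probe sets that reached the same signal in wild type it was -0.05 in the overexpressor and -0.04 in the knockout.

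The rest of the family had low signals. SWEET14, whose highest signal came nearest to the filter from below, had a signal of 57.0 in the overexpressor and 117 in the knockout, against 49.8 in wild type. It too was highest in the knockout, by 2.36-fold over wild type (log2 ratio 1.24), at signals where a ratio is imprecise. From above, the highest signal of SWEET4, 291, came nearest to the filter. Since signals of different probe sets are not comparable, this says nothing of which transcript is more abundant. SWEET6, SWEET7, SWEET8, SWEET9 and SWEET10 lay under the floor on all arrays, so no ratio is given for them. SWEET10 is the protein-coding neighbour of SWEET13 in the TAIR10.1 gene table. Its signal was 28.2 in the overexpressor and 24.9 in the knockout, against 6.01 in wild type. SWEET3 had a signal of 24.6 in the overexpressor and 3.13 in the knockout, against 79.3 in wild type, and the pollen gene AtVEX1, also called SWEET5, had 42.7 in the overexpressor and 38.4 in the knockout, against 73.6 in wild type. Counted without a filter over the 16 genes with a probe set, 2 were at least 2-fold higher in the overexpressor than in wild type, against 2.61% of all Arabidopsis probe sets, and 0 were 2-fold lower, against 3.89%. In the knockout, 4 of the 16 were at least 2-fold higher, SWEET13 and SWEET14 being the additions, against 3.35%, and 0 were 2-fold lower, against 4.98%. Between the lines 4 of the 16, SAG29, SWEET1, SWEET13 and SWEET14, were at least 2-fold lower in the overexpressor, against 3.19%, and 0 were 2-fold higher, against 2.98%.

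Other sugar transporters are set beside the SWEET genes. The lists were drawn up with earlier results of the same arrays known. A gene is said to have a probe set where the annotation used here gave it one naming that gene alone. That annotation did not list 8730 of the 22746 Arabidopsis probe sets, and 503 named several genes. A listed gene without a probe set may therefore still be on the array. Of 9 SUC sucrose-proton symporters, 0 had such a probe set. Of 14 STP hexose-proton symporters, 4 had one and 1 was measured. Of 21 vacuolar, plastid and polyol transporters, 8 had one. Of the 7 of these transporters measured in the overexpressor and the 6 measured in the knockout, 0 were 2-fold higher or lower than wild type. With 9.40% of all measured probe sets past 2-fold in the overexpressor and 12.9% in the knockout, a count of 0 among so few genes is near the background. Their log2 ratios ran between -0.46 and 0.39 in the overexpressor and between -0.48 and 0.83 in the knockout. The largest was that of AT5G17010, listed with the vacuolar group, with a signal of 483 in the overexpressor and 669 in the knockout, against 376 in wild type. SFP1, an ERD6-like sugar transporter gene, had 1684 in the overexpressor and 1651 in the knockout, against 1288 in wild type. TMT1, which loads hexoses into the vacuole, had 907 in the overexpressor and 878 in the knockout, against 999.5 in wild type. The STP gene measured was AT5G61520, at 378 in the overexpressor and 372 in the knockout, against 519 in wild type.

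The array annotation gave a probe set for 4 of 22 genes of sucrose synthesis and cleavage, of which 3 were measured, and 0 reached 2-fold in any comparison. Over all measured probe sets 9.40% did in the overexpressor and 12.9% in the knockout against wild type, and 9.18% between the lines, so 0 of 3 is near the background. All 3 were higher in the knockout than in wild type, with log2 ratios between 0.42 and 0.88. AT1G62660, listed with the vacuolar invertases, had a signal of 2197 in the overexpressor and 2948 in the knockout, against 1603 in wild type. ATSPS4F, a sucrose phosphate synthase, had 771 in the overexpressor and 1062 in the knockout, against 781 in wild type. The genes measured in each comparison are few, so these lists describe a small part of sugar transport and metabolism.

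**Figure D4:**
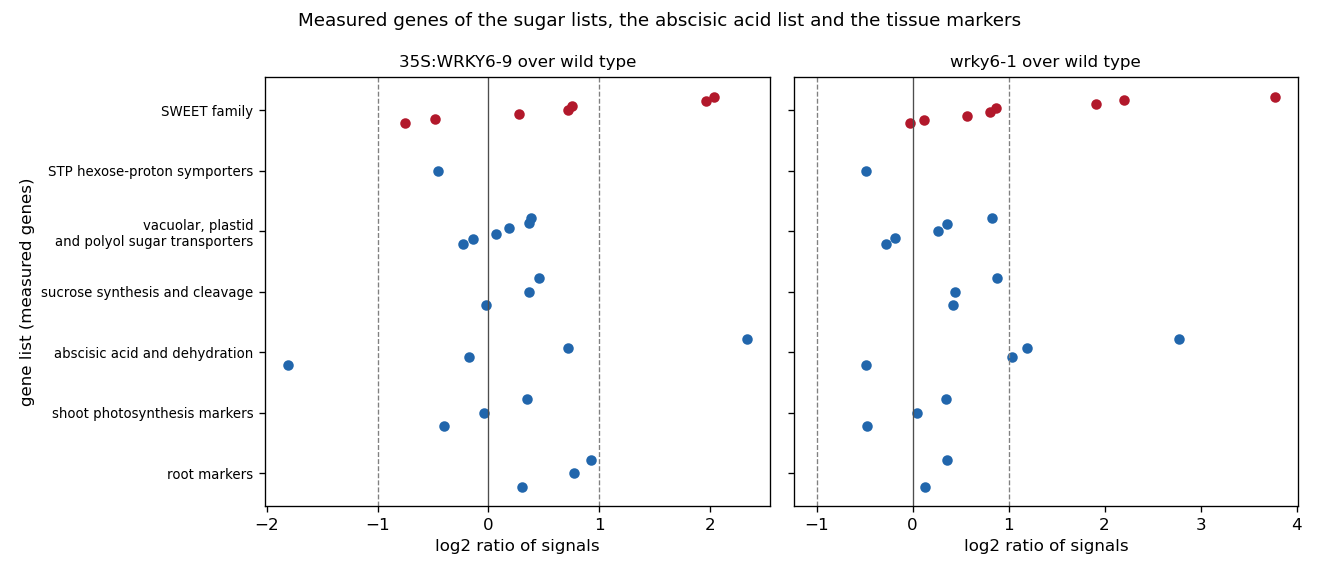
log2 ratios of each measured gene in the SWEET family (red) and in 6 further lists (blue), for 35S:WRKY6-9 over wild type on the left and wrky6-1 over wild type on the right. Dashed lines mark 2-fold. The STP, vacuolar and sucrose genes all lay within 2-fold of wild type, whereas SAG29, SWEET4 and, in the abscisic acid list, LEA4-5 lay above it in both lines.

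SAG29 is known both as a senescence gene and as a gene induced by abscisic acid and osmotic stress, so both lists are set beside it. Only 2 of 18 senescence and dark-induced genes had a probe set in the annotation used here, and neither reached 174.6 on any array. SAG101, which is known to promote leaf senescence, had a signal of 80.1 in the overexpressor and 42.4 in the knockout, against 84.95 in wild type. WRKY53, a transcription factor of senescence, had 121 in the overexpressor and 78.1 in the knockout, against 104 in wild type. Neither was highest in the knockout, the array in which SAG29 was, but SAG101 lay under the floor in the knockout. These are 2 genes of 18, both under 174.6, so their order is given as a description. The part of senescence or of abscisic acid in the SAG29 signal was not tested. Of 18 abscisic acid and dehydration genes, 4 were measured. LEA4-5, a late embryogenesis abundant protein gene, had a signal of 432 in the overexpressor and 586 in the knockout, against 85.9 in wild type. COR15A, a cold-regulated chloroplast protein gene, had 261 in the overexpressor and 2081 in the knockout, against 913 in wild type. In the overexpressor, LEA4-5 was above wild type by 2-fold or more and COR15A was 3.50-fold below it, while COR47 and LTI30 lay within 2-fold. In the knockout, 3 of the 4 exceeded wild type by 2-fold or more, LEA4-5, COR15A and the dehydrin gene LTI30, the last at 2.05-fold, where 5.16% of all measured probe sets were 2-fold higher. LEA4-5, at 85.9 in wild type, counted as measured only through the lines in which it was higher. The dehydrin gene COR47 had a log2 ratio of -0.48 there.

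Among 943 genes with a symbol that were measured in both comparisons with wild type, the 4 closest to SAG29 by the Euclidean distance of their 2 log2 ratios over the 3 arrays were DFR, UGT78D1, Hsp70-2 and BGLU28. DFR, the dihydroflavonol reductase of anthocyanin synthesis, was at a distance of 0.61, with signals of 228 in the overexpressor and 1053 in the knockout, against 83.9 in wild type. UGT78D1, a flavonol glycosyltransferase gene, was at 1.39, and the chaperone gene Hsp70-2 at 1.69. The β-glucosidase gene BGLU28, at 2.09, had the opposite order of the lines, with 814 in the overexpressor and 353 in the knockout, against 65.1 in wild type. For SWEET4 the 4 closest were APL3, a subunit of ADP-glucose pyrophosphorylase in starch synthesis, at a distance of 0.82, GSTU20 at 0.92, the plastid ATP synthase gene atpH at 1.07 and the serine carboxypeptidase-like gene scpl46 at 1.08. APL3 had 248 in the overexpressor and 383 in the knockout, against 106 in wild type. Like SAG29 and SWEET4, the genes DFR, BGLU28, APL3 and scpl46 were under 174.6 in wild type. They counted as measured only through the lines in which they were higher.

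Shoot and root were both present on every array by their markers. Of 16 photosynthesis markers, 3 had a probe set in the annotation used here. Their summed signal was 58378 in the overexpressor and 59026 in the knockout, against 58385 in wild type. RCA, Rubisco activase, had a signal of 25048 in the overexpressor and 25155 in the knockout, against 19737 in wild type, and LHCB4.2, for a light-harvesting protein, had 14778 in the overexpressor and 14105 in the knockout, against 19527 in wild type. Of 14 root markers, 3 had a probe set in that annotation. Their summed signal was 18057 in the overexpressor and 18511 in the knockout, against 14519 in wild type, mostly from PYK10. The root hair expansin gene EXPA7 had 243 in the overexpressor and 113 in the knockout, against 128 in wild type, and EXPA18 had 305 in the overexpressor and 195 in the knockout, against 179 in wild type. None of these 6 markers was under the floor. The part of a different share of root or shoot in the SWEET ratios was not tested.

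The only measure of precision in these arrays was how far 2 probe sets of the same gene disagreed. The SD of 1 probe set's log2 ratio was 0.25 in the overexpressor over wild type, 0.23 in the knockout over wild type and 0.27 between the lines, from 45, 47 and 46 genes, and it does not include variation among plants, RNA extractions or hybridisations. Against it, the ratios of SWEET2, SWEET4 and SWEET17 between the lines (-0.05, -0.24 and -0.15) and those of SWEET11 and SWEET16 in the knockout over wild type were no larger than that disagreement. None of the 8 genes had another probe set to compare.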

How the data were processed

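Biotin-labelled cRNA from seedlings of 3 genotypes was hybridised to 1 Affymetrix array each. The deposited values are linear intensity, 1 signal for each probe set and array, and GCOS 1.0 and MAS5 stand in the submitters' processing notes with no role stated. The 2% trimmed means of the deposited intensity were 499.8 in 35S:WRKY6-9, 500.1 in wrky6-1 and 500.0 in wild type, so no further scaling was applied. A ratio of low signals is imprecise, hence the floor. Control probe sets (64 of 22810) were left out. Groups came from the genotype labels.

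Gene names came from the annotation of the array platform, updated through Entrez identifiers to TAIR10.1 (13436 of 13513 single-gene probe sets matched). The brightest probe set stood for a gene. Detection calls were not used here, and no genome build is named in the sources used here, so no coordinates or sequences are given.

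Members and gene lists were chosen with earlier results of these data known. Named were all members, WRKY6, from every list the 2 measured genes that differed most from wild type, and the 4 genes closest to SAG29 and to SWEET4. TMT1, LTI30, COR47, SAG101, WRKY53, PYK10 and family genes outside the members were named after their values were seen. Alternatives were other floors, scalings and filters. The ratio calculation was tested on simulated data. Python 3.11.15, pandas 2.3.3 and statsmodels 0.14.6 were used. With 1 array per genotype, the number of arrays limits the precision.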

Additional observations from a re-analysis of the deposited data

How the results depend on the processing

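No paired analysis was possible because each genotype had 1 array, and for the same reason no replicate could be left out. Over 3 other floors and 3 other scalings, each member kept its side of the 2-fold threshold in every comparison. The sign turned for SWEET16 in wrky6-1 over wild type under 3 of the 6, and for SWEET11 there under 1. With the floor at the 40th percentile, a signal of 96.4 that lies above SAG29 and SWEET4 in wild type, the log2 ratio of SAG29 was 1.45 in 35S:WRKY6-9 and 3.20 in wrky6-1, and that of SWEET4 was 1.35 in 35S:WRKY6-9 and 1.59 in wrky6-1. With a pseudocount of 16 in place of a floor, SAG29 was at 3.48 and SWEET4 at 1.96 in wrky6-1. The member medians moved by less than the disagreement between probe sets. With measurement required at the 70th percentile, a signal of 444, the count of members at least 2-fold different was 0 in 35S:WRKY6-9 and 1 in wrky6-1, where SAG29 alone of the 3 reached it, and 2 between the lines. With the mean of the 2 arrays as the filter it was 0 in 35S:WRKY6-9, as SAG29 and SWEET4 both averaged under 174.6. The photosynthesis marker median in wrky6-1 was 0.05 and became -0.19 under lowess scaling, the cause of which was not tested. Each member had 1 probe set, so averaging probe sets gave no other value. The ratios of members and list medians under these settings were added after the data were seen.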
